A study of Mus musculus with 12 samples.

Results

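Complement was followed here through 26 genes of a panel of 547, in the terminal ileum of 12 female mice. The members were the components, regulators and receptors of the complement system on a list of 29 gene symbols, and the rule that picked them from the table used symbols and no signal, though the list itself was drawn up with earlier results of these data known. Symbols for C3ar1, C5ar1 and Cr1l were not among the genes of the table, which left the 26. Total RNA of the ileum was hybridised to NanoString nCounter probes, which count single RNA molecules by colour-coded barcodes without amplification. The study asked whether an antibiotic-perturbed gut microbiota, passed from mother to offspring, alters intestinal inflammation in susceptible mice.

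The mice fell into 4 groups of 3. IL10_STAT mice carried the genotype label IL10 and were pups of mothers given cecal contents that the labels call STAT, taken from an antibiotic-perturbed microbiota. IL10_control mice carried the same genotype label and were pups of mothers given control cecal contents. WT_STAT and WT_control mice carried the genotype label C57 and were pups of mothers given the STAT and the control contents. All were female, and the labels name no age, litter, mother or cage. The inoculum was given to mothers and not to the pups measured, so differences between mothers, litters or cages cannot be told apart from inoculum or genotype label, and every p-value measures the spread between these mice only.

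The genotype label was checked against Il10 itself, the gene that the series describes as deficient. Il10 had a signal of 31.6, 49.2 and 38.6 in IL10_STAT mice and of 35.2, 74.4 and 24.9 in IL10_control mice. It had 0 in each WT_STAT mouse and 0.452, 1.02 and 0 in WT_control mice. Il10 thus ran against the label in all 12 mice, and where on the transcript its probe sits is not known here. The groups are therefore called IL10-labelled and C57-labelled throughout, and every direction between genotypes is between mice as labelled. Counts above background, recovered from the step between values, totalled 541733 to 717454 in IL10_STAT, 398625 to 506141 in IL10_control, 191012 to 276579 in WT_STAT and 146691 to 365850 in WT_control. They did not overlap between the genotype labels, so genotype label and these counts cannot be told apart. The complement genes held 2.26% to 3.83% of the signal of a mouse. Of 11 epithelial markers only Muc1 and Abcb1a were in the table, so the labelled tissue was checked on these alone. Abcb1a, an intestinal efflux transporter, was at 1035 to 3392 in IL10-labelled mice and at 2913 to 12711 in C57-labelled mice. Muc1, a membrane mucin, ran the other way, at 32.3 to 85.6 in IL10-labelled mice and 6.55 to 44.6 in C57-labelled mice.

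Complement is a cascade of plasma and tissue proteins that marks microbes and damaged cells for uptake and can pierce membranes. The classical pathway starts when C1q binds antibody or a surface and activates the proteases C1r and C1s, the lectin pathway starts from mannose-binding lectin and the MASP proteases, and the alternative pathway amplifies C3 deposition through factor B, factor D and properdin. All routes meet at C3 and end in a pore built from C5b, C6, C7, C8 and C9. Much of the plasma pool is made in liver, but macrophages, stromal cells and epithelium also transcribe complement genes, and in the gut C3 made locally can reach the lumen. In bulk tissue, fewer cells of a type and less RNA per cell cannot be told apart.

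Of the 26 members, 18 stood at 20 or more in 3 or more mice and were tested, as were 457 of the 547 genes. The signal is the deposited normalized value on a linear scale. Signals of different genes are not read as relative amounts of RNA, because probes differ in efficiency. Ratios, sums and shares of signals are compared only between mice. Among the 18, 14 were at or above 20 in all 12 mice. C6, C7, C9 and Cr2 were above 20 in only 6, 7, 5 and 6 mice, so they entered the test through the groups in which they were high. The 8 members not tested included the whole lectin arm and every C8 chain. Mbl2, the mannose-binding lectin, reached at most 1.36, and its protease Masp2 at most 7.93. Masp1, the other lectin protease, ran from 4.95 to 27.6 and passed 20 in only 2 mice. C8a was listed at 0 in all 12 mice, C8b reached at most 4.95, and C8g, the small C8 chain, reached 15.6. Cfi, the protease factor I that degrades C3b, reached at most 7.22, and Cd59b, an inhibitor of the terminal pore, at most 9.23. At this depth these 8 genes carry no comparison.

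Sequences upstream of 4 members are shown because these genes stand for the initiating, central and terminal steps of the cascade. They are the 250 bases before the annotated start, from RefSeq on build GRCm38.p6, written 5′ to 3′ on the strand of the gene. C1qb lies on the minus strand at chr4:136886201-136886450, C3 on the minus strand at chr17:57228137-57228386, C7 on the minus strand at chr15:5063774-5064023 and C9 on the plus strand at chr15:6445096-6445345. Capitals mark matches to 3 short motifs.
C1qb: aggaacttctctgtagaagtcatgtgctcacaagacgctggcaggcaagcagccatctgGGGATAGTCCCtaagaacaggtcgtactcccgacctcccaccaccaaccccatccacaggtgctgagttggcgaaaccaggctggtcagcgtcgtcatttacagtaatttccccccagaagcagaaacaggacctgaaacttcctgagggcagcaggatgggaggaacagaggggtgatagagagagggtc
C3: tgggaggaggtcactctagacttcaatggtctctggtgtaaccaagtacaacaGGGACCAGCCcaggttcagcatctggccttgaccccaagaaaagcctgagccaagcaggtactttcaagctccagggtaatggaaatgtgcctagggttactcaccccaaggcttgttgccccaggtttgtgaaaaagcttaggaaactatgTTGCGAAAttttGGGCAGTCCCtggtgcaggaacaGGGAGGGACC
C7: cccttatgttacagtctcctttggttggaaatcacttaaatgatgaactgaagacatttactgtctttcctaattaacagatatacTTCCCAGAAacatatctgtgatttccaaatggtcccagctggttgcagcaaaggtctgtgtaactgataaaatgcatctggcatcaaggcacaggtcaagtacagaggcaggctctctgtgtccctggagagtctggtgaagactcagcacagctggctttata
C9: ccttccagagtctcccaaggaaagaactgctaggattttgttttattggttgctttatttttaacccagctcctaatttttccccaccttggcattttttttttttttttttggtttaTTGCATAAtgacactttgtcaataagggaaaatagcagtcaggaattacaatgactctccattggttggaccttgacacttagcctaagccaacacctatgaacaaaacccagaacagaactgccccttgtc
The motifs searched on both strands were TTCNNNGAA (the GAS element bound by STAT factors), a pair of GAAA separated by any 2 bases (an interferon-stimulated response element), GGGA and CC separated by any 4 bases (an NF-kB element) and TTGCNNAA (a C/EBP element). In C1qb the capitals are 2 overlapping NF-kB matches starting 191 and 190 bases before the start. In C3 they are NF-kB matches at 197, 33 and 10 bases and a C/EBP match at 45 bases before the start. In C7 the capitals are a GAS match at 164 bases, and in C9 a C/EBP match at 132 bases. Apart from the C1qb pair, no matches in these 4 windows overlapped. All 26 members matched a RefSeq gene, 25 by symbol and C1s by synonym, and 19 had a window. In the first window of these 19, NF-kB matches were present in 6 (C1qb, C3, C1qbp, Cd55, Cd59b and Cr2), GAS matches in 3 (Masp2, C7 and C8a), C/EBP matches in 3 (C1s, C3 and C9) and the interferon element in 0. Over all 32851 RefSeq windows of the same length the shares were 17.6% for NF-kB, 7.02% for GAS, 9.56% for C/EBP and 2.98% for the interferon element. A match describes letters and not binding, and C1qa, C2, C4a, Cfb, Serping1, Masp1 and Cfi had no window in the table.

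Many complement genes differed between the genotype labels under both inocula, as did much of the panel. Between IL10_control and WT_control, 11 of the 18 tested members (of 26 in the table) were higher and 2 lower at an adjusted p under 0.05 in limma's test (n = 3 and 3). The panel as a whole moved the same way, with 53.6% of the 457 genes higher and 3.94% lower, 57.5% in all, against 13 of 18 members. The groups did not overlap for the same number of members, 11 higher and 2 lower, where they did not for 61.3% of all genes, 56.0% higher and 5.25% lower. The median log2 difference of the members was 1.78, beside 1.01 for all genes tested. Between IL10_STAT and WT_STAT, 10 members were higher and 3 lower, beside 40% higher and 11.6% lower in the panel, 51.6% in all, and the members' median was 0.88 beside 0.50. The groups did not overlap for 11 members higher and 3 lower under STAT, where they did not for 64.6% of all genes, 47.3% higher and 17.3% lower. These counts include C6, C7 and C9, which passed the filter mainly or wholly through the genotype label in which they were high and so support nothing. Among the 14 members measured in all 12 mice, 9 were higher and 1 lower under the control inoculum, beside 43.9% and 4.45% of the 337 panel genes measured in all mice. Under STAT these were 8 and 2 members, beside 32.6% and 13.4%.

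The split between higher and lower depended on the scaling of the samples. With each sample centred on its own median, the panel median of the control contrast was -0.16, and 8 members were higher and 5 lower in IL10_control, where 154 panel genes were higher and 183 lower. Under quantile normalization these were 9 members higher and 3 lower, and 123 panel genes higher and 183 lower. For IL10_STAT against WT_STAT the counts were 5 higher and 4 lower when centred, with a panel median of -0.02 and 136 panel genes higher and 145 lower. Under quantile normalization they were 7 higher and 4 lower, with 126 panel genes higher and 158 lower. When all 6 IL10-labelled mice were set against all 6 C57-labelled mice, the values of 9 of 18 members lay wholly above, where 41.1% of all genes did. These were C1qa, C1qb, C1ra, C1s, C4a, C2, Cfp, C3 and C6. C6 passed the filter only through the IL10-labelled mice, so its place in this count supports nothing. Only C4bp lay wholly below, where 3.94% of all genes did.

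**Figure D1:**
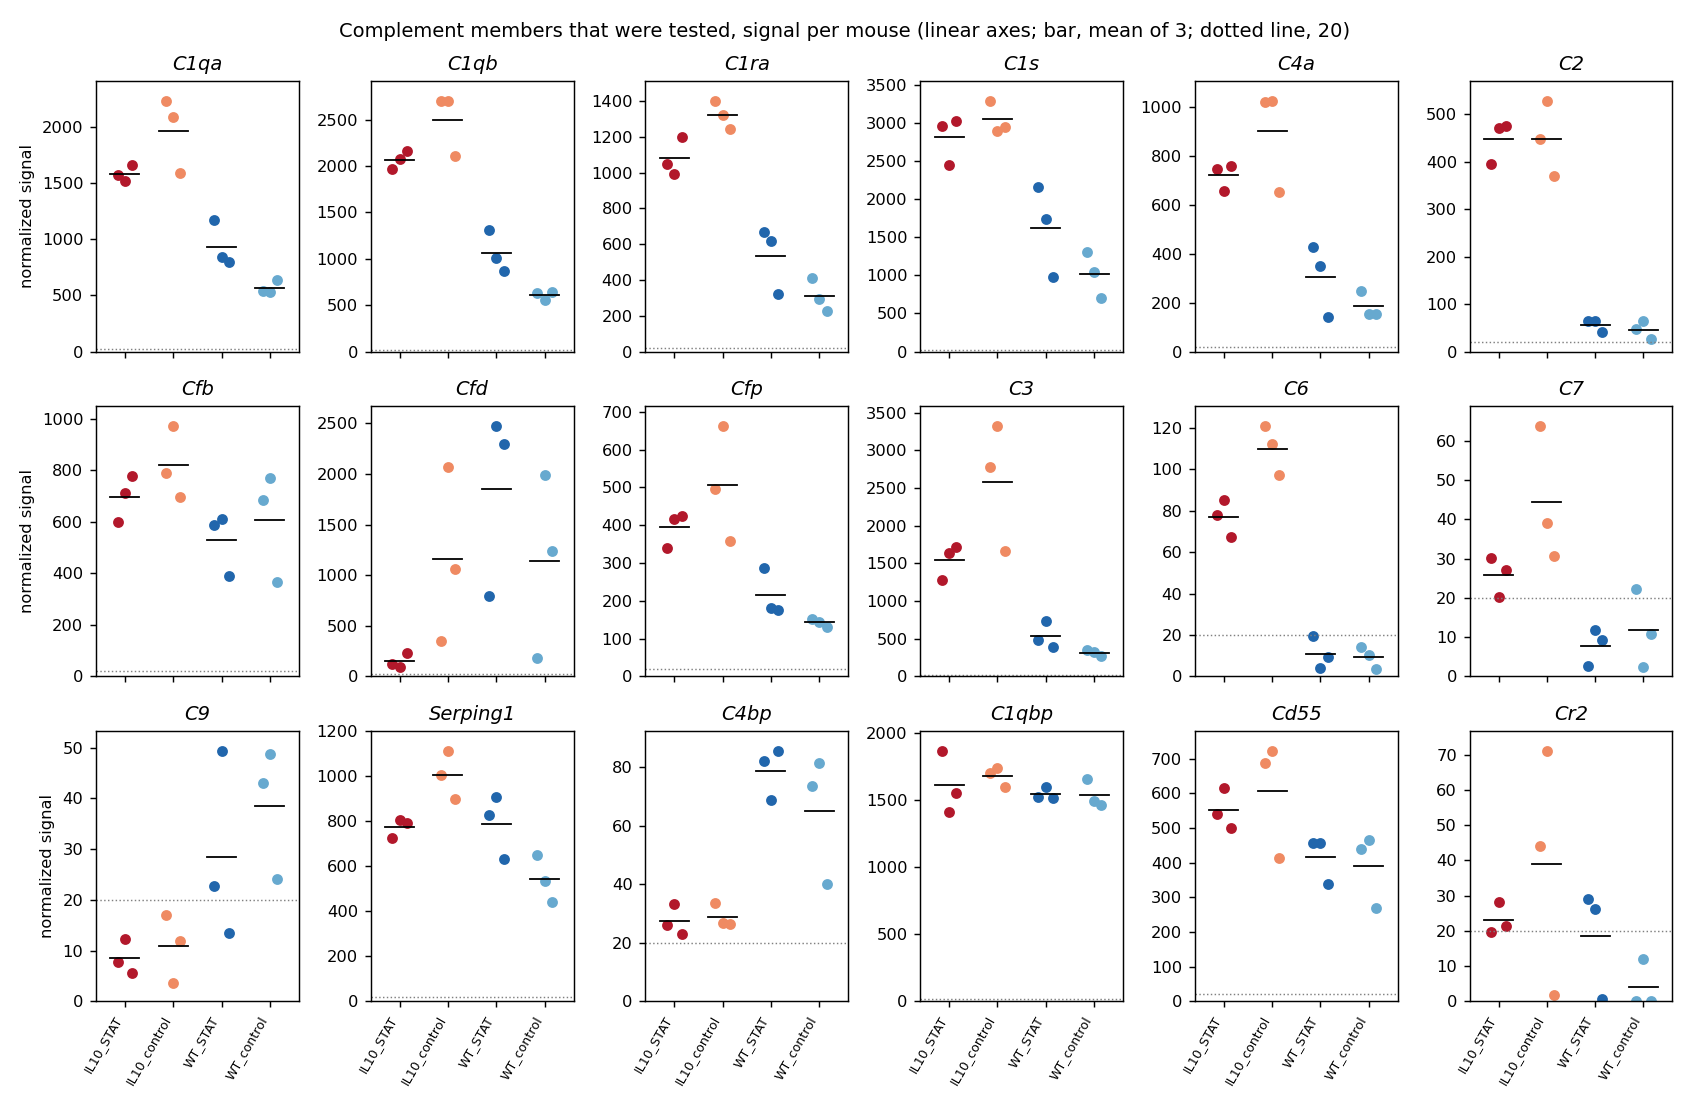
Normalized signal (linear axis from 0, no unit) of each of the 18 tested members in each mouse, with 1 dot per mouse, a bar at the mean of 3 mice and a dotted line at 20. C1qa, C1qb, C1ra, C1s, C4a, C2, Cfp, C3 and C6 have every IL10_STAT and IL10_control dot above every WT_STAT and WT_control dot, and C4bp has every one below. C6 passed the filter only through the IL10-labelled mice, so its separation supports nothing.

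C1q is the recognition molecule of the classical pathway, and in tissue its chains are made mainly by macrophages. C1qa had a signal of 1570.1, 1517 and 1659.8 in IL10_STAT and 2229, 2085 and 1586 in IL10_control. It had 1169, 837 and 793 in WT_STAT and 542, 532 and 634 in WT_control. Every IL10-labelled mouse was above every C57-labelled mouse, and the WT_STAT mice lay between the IL10-labelled mice and WT_control. C1qa was 3.43-fold higher in IL10_control than in WT_control (log2 1.78 ± 0.21 SE, adjusted p = 3.57e-05 in limma's test). It was 1.72-fold higher in IL10_STAT than in WT_STAT (0.78 ± 0.21, adjusted p = 0.00994 in limma's test). C1qb, the B chain, had the same order of groups. Its signal was 1968, 2079.9 and 2161 in IL10_STAT and 2699.9, 2699.9 and 2103 in IL10_control. It was 1309.9, 1005 and 873 in WT_STAT and 631, 552 and 644 in WT_control. The C1qb groups did not overlap between genotype labels, and the fold was 4.08 between the control groups (2.03 ± 0.20, adjusted p = 1.21e-05 in limma's test) and 1.97 between the STAT groups (0.98 ± 0.20, adjusted p = 0.00216). The STAT calls were lost with samples centred, with adjusted p = 0.346 for C1qa and 0.0743 for C1qb, and under quantile normalization for C1qa (0.150). The ratio of C1qa to C1qb within a mouse was 0.729 to 0.798 in IL10_STAT and 0.754 to 0.826 in IL10_control, against 0.833 to 0.909 in WT_STAT and 0.858 to 0.984 in WT_control. It was a little lower in every IL10-labelled mouse than in any C57-labelled mouse.

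Group medians of summed macrophage and monocyte markers had the same order as those of C1qa and C1qb. Within WT_STAT the mice also kept 1 order in the sum, C1qa and C1qb. Within WT_control, replicate 3 was highest in C1qa and C1qb and lowest in the sum. Of 13 listed markers 11 were in the table, and their summed signal was 3549 to 4558 in IL10_STAT, 3712 to 5391 in IL10_control, 1429.7 to 2269 in WT_STAT and 1054 to 1383 in WT_control. Emr1, the F4/80 antigen, was at 414 to 461 in IL10_STAT, 491 to 571 in IL10_control, 234 to 346 in WT_STAT and 139 to 187 in WT_control. The list did not move as 1 block, because the scavenger receptor Cd163 was at 7.24 to 109 in IL10-labelled mice and at 104 to 239.7 in C57-labelled mice. Marco, another scavenger receptor, was listed at 0 in 5 of the 6 C57-labelled mice. The part of macrophage number in the C1q signal was not tested.

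C1r and C1s are the proteases that C1q activates, and they are made in many tissues by stromal and epithelial cells. C1ra had a signal of 1049, 993 and 1202 in IL10_STAT and 1401, 1325 and 1244 in IL10_control. It had 667, 615 and 319 in WT_STAT and 409, 292 and 228 in WT_control. No IL10-labelled mouse overlapped a C57-labelled one. C1ra was 4.39-fold higher in IL10_control than in WT_control (2.13 ± 0.30, adjusted p = 0.000112 in limma's test) and 2.12-fold higher in IL10_STAT than in WT_STAT (1.08 ± 0.30, adjusted p = 0.0109). C1s averaged 2816 ± 313 in IL10_STAT, 3049.8 ± 211 in IL10_control, 1627 ± 599.7 in WT_STAT and 1016 ± 303 in WT_control (SD, n = 3 each). It was 3.09-fold higher in IL10_control than in WT_control (1.63 ± 0.31, adjusted p = 0.000899 in limma's test) and 1.81-fold higher in IL10_STAT than in WT_STAT (0.86 ± 0.31, adjusted p = 0.0363). The STAT call of C1s was fragile: without WT_STAT replicate 3, which had the lowest C1s of that group at 980.3, the adjusted p was 0.128. It was also lost without WT_STAT replicate 2 (0.0562), without IL10_STAT replicate 1 (0.0937), 2 (0.0562) or 3 (0.103), with only these groups in the fit (0.0586) and with samples centred (0.194). The control call of C1s was lost with samples centred (0.0740). C1ra and the C1s gene lie next to each other in RefSeq, with 0 genes between them. The ratio of C1ra to C1s was 0.354 to 0.404 in IL10_STAT and 0.421 to 0.457 in IL10_control, against 0.308 to 0.355 in WT_STAT and 0.278 to 0.326 in WT_control.

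C4 and C2 form the C3-cleaving enzyme of the classical and lectin pathways. C4a had a signal of 749, 658 and 761 in IL10_STAT and 1023, 1026 and 654 in IL10_control. It had 430.0, 349.9 and 139 in WT_STAT and 249, 152 and 152 in WT_control. It was 4.89-fold higher in IL10_control than in WT_control (2.29 ± 0.39, adjusted p = 0.000456 in limma's test) and 2.61-fold higher in IL10_STAT than in WT_STAT (1.38 ± 0.39, adjusted p = 0.0127), and no IL10-labelled mouse overlapped a C57-labelled one. C4a and its closely related copy C4b are separated by 1 gene in RefSeq, and the probe may read both. The value is therefore that of C4a, of C4b or of their sum, and is not read as the amount of C4 in that enzyme.

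C2 gave the lowest adjusted p of any member in both genotype contrasts. Its signal was 395, 471 and 475 in IL10_STAT and 449, 528 and 370.0 in IL10_control, with overlapping values in those groups. It was 63.4, 63.6 and 40.3 in WT_STAT and 47.5, 63.8 and 26.9 in WT_control. The lowest IL10-labelled mouse was thus several times above the highest C57-labelled mouse. C2 was 10.02-fold higher in IL10_control than in WT_control (3.32 ± 0.31, adjusted p = 8.03e-06 in limma's test) and 8.03-fold higher in IL10_STAT than in WT_STAT (3.01 ± 0.31, adjusted p = 3.31e-05). Both calls held in every alternative run, with log2 differences of 1.99 to 3.60 under the control inoculum and 2.39 to 3.16 under STAT. Of 11 listed interferon-gamma-induced genes, 7 were in the table. Their summed signal was 13466 to 18369 in IL10_STAT, 14381 to 16586 in IL10_control, 2788 to 3574 in WT_STAT and 2119.9 to 3142 in WT_control. The sum, C2, C3, C1qa and C1qb were each higher in every IL10-labelled mouse than in any C57-labelled mouse. So were 41.1% of all genes tested. Within groups, the order of the mice by the sum was that by C2 in IL10_STAT, WT_STAT and WT_control, and not in IL10_control. For C3 it was the same in IL10_STAT and WT_STAT only, for C1qb in IL10_STAT only and for C1qa in no group. The part of interferon-gamma in the complement signals was not tested.

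Factor B, encoded by Cfb, is the alternative pathway counterpart of C2, and RefSeq places the Cfb and C2 genes side by side with 0 genes between them. Cfb had a signal of 601, 712 and 777 in IL10_STAT and 792, 972 and 698 in IL10_control. It had 588, 613 and 389 in WT_STAT and 685, 770.4 and 368 in WT_control. The groups overlapped under the control inoculum, and the log2 difference was 0.49 ± 0.30 (adjusted p = 0.195 in limma's test). Between IL10_STAT and WT_STAT it was 0.42 ± 0.30 (adjusted p = 0.283). Its direction was not settled by the scaling, because with samples centred the control contrast turned to -0.68, a call as lower (adjusted p = 0.00485), and the STAT contrast to -0.11 (0.616). Under quantile normalization they turned to -0.26 (0.193) and -0.06 (0.780).

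A ratio of 2 genes within a mouse does not change when all signals of that mouse are multiplied by 1 factor. Quantile normalization and the background taken off can still change it. A ratio shows unequal change but not which gene changed. The pairs below were chosen after their values were seen and are given without a test. The ratio of C2 to Cfb was 0.612 to 0.662 in IL10_STAT and 0.530 to 0.567 in IL10_control, against 0.104 to 0.108 in WT_STAT and 0.0694 to 0.0828 in WT_control. The 4 groups did not overlap in this ratio, and every IL10-labelled mouse stood far above every C57-labelled mouse. The spread within WT_STAT was narrower than the counting error of C2 in those mice, so it does not measure precision. The order of the 2 inocula within a genotype label is therefore not read from this ratio. C2 rested on 18.5 to 52.5 counts above background in C57-labelled mice. Taken from these counts alone the counting error was 13.8% to 23.2%, a lower bound because the background taken off adds to it. The ratio of C3 to Cfb was 2.13 to 2.30 in IL10_STAT and 2.38 to 3.50 in IL10_control, against 0.830 to 1.20 in WT_STAT and 0.412 to 0.754 in WT_control. From the highest to the lowest mouse the C2 to Cfb ratio spanned 9.54-fold and the C1qa to C1qb ratio 1.35-fold.

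**Figure D2:**
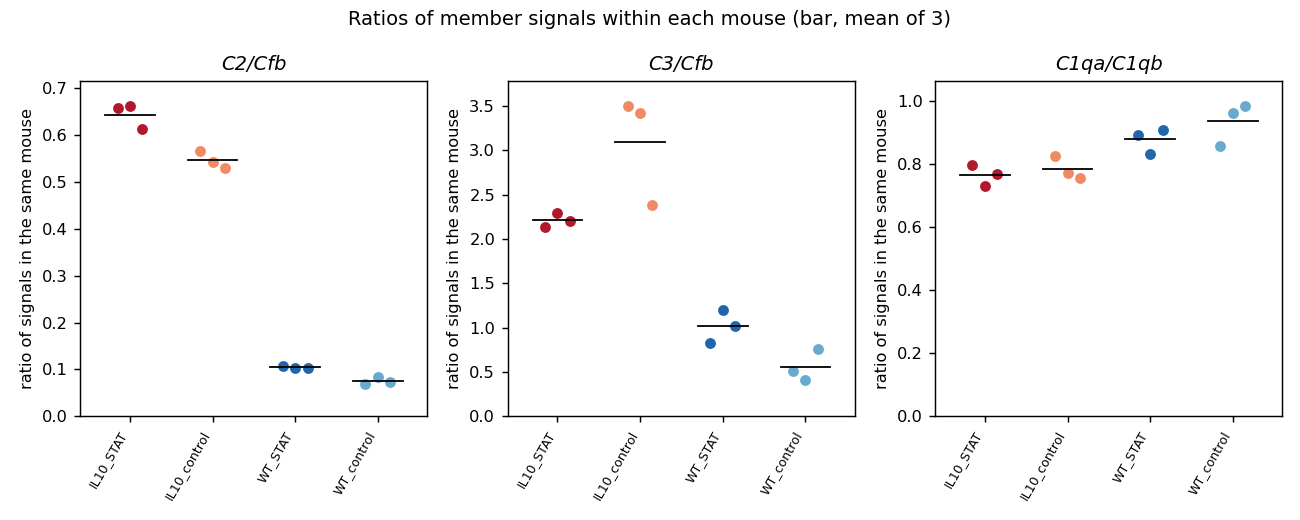
Ratio of the signals of 2 members within each mouse (linear axis from 0, no unit), with 1 dot per mouse and a bar at the mean of 3 mice. The C2 to Cfb ratio is 0.530 or more in every IL10_STAT and IL10_control mouse and 0.108 or less in every WT_STAT and WT_control mouse, while the C1qa to C1qb ratio is 0.729 to 0.826 in IL10-labelled and 0.833 to 0.984 in C57-labelled mice.

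C3 is the central component, whose cleavage products coat targets and feed every later step. Its signal was 1280.3, 1636 and 1716 in IL10_STAT and 2772, 3323 and 1661 in IL10_control. It was 488, 736 and 396 in WT_STAT and 347, 318 and 277 in WT_control. IL10_control replicates 1 and 2 stood above every other mouse, and all IL10-labelled mice stood above all C57-labelled mice. C3 was 7.92-fold higher in IL10_control than in WT_control (2.99 ± 0.30, adjusted p = 1.35e-05 in limma's test) and 2.93-fold higher in IL10_STAT than in WT_STAT (1.55 ± 0.30, adjusted p = 0.00156). Both calls held in every alternative, with log2 differences of 1.82 to 3.28 and of 1.03 to 1.80.

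Properdin, encoded by Cfp, stabilises the alternative pathway enzyme and is stored in neutrophils and made by other leukocytes. Cfp averaged 394 ± 46 in IL10_STAT, 506 ± 153 in IL10_control, 215 ± 63.4 in WT_STAT and 143 ± 10.4 in WT_control (SD, n = 3 each). It was 3.42-fold higher in IL10_control than in WT_control (1.77 ± 0.27, adjusted p = 0.000173 in limma's test) and 1.87-fold higher in IL10_STAT than in WT_STAT (0.90 ± 0.27, adjusted p = 0.0158). The STAT call was lost with samples centred (0.123), under quantile normalization (0.182), and without IL10_STAT replicate 2 (0.0521), IL10_STAT replicate 3 (0.0547) or WT_STAT replicate 2 (0.0577). Neutrophil markers, all 7 of them in the table, summed to 1913 to 7672 in IL10_STAT and 366 to 29964 in IL10_control, against 7.08 to 56.9 in WT_STAT and 21.1 to 40.8 in WT_control. Their part in the Cfp signal was not tested.

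**Figure D3:**
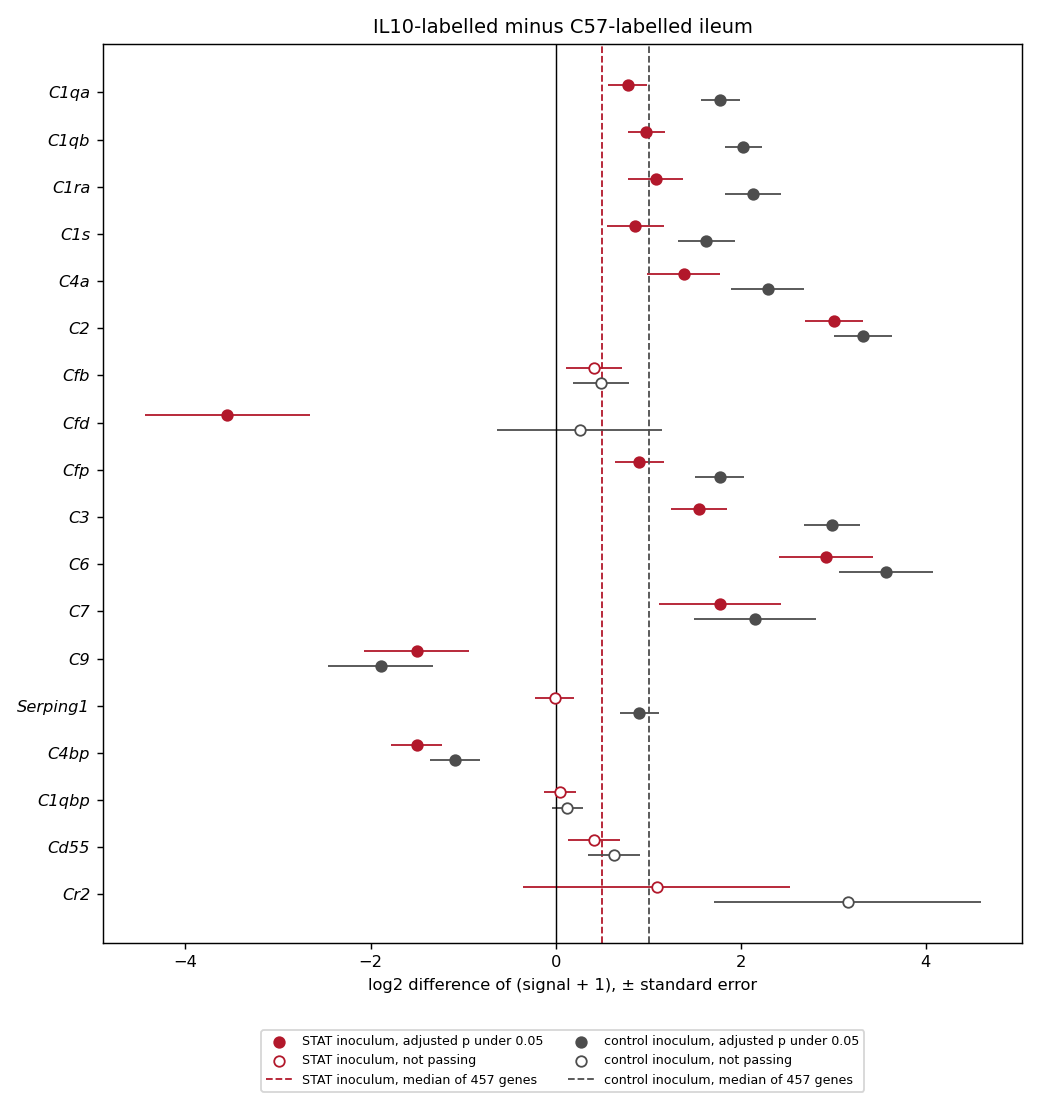
Log2 difference of (signal + 1), IL10-labelled minus C57-labelled, for each tested member under the STAT inoculum and under the control inoculum, with bars of 1 standard error, dashed lines at the median of the 457 genes and filled points for an adjusted p under 0.05. C2 lies far to the right of both lines at 3.01 under STAT and 3.32 under control, while Cfd passes only under STAT at -3.55. The filled points of C6, C7 and C9 support nothing, because these genes passed the filter mainly or wholly through the label in which they were high. With samples centred on their medians, Serping1, C1qbp, Cd55, Cfb and Cfd turn below 0 under the control inoculum, and C1qbp, Cd55 and Cfb under STAT.

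The terminal components C6, C7 and C9, which assemble into the membrane pore, were near the detection limit. Each passed the filter mainly or wholly through the genotype label in which it was high. The filter itself thus favoured a difference between the labels, and these genes are described without a test. C6 had a signal of 78, 85.1 and 67.5 in IL10_STAT and 121, 112 and 97.1 in IL10_control. It had 19.7, 4.05 and 9.2 in WT_STAT and 14, 10.6 and 3.64 in WT_control. All C57-labelled mice were under 20, so the fold is a bound with those mice set to 20. C6 was at least 5.48-fold higher in IL10_control than in WT_control and at least 3.83-fold higher in IL10_STAT than in WT_STAT. C7 had a signal of 30.2, 20.2 and 27.1 in IL10_STAT and 63.7, 39 and 30.7 in IL10_control. It had 2.54, 11.8 and 9.2 in WT_STAT and 22.2, 2.39 and 10.9 in WT_control. The IL10-labelled mice were above the C57-labelled mice of the same inoculum without overlap.

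The log2 difference of C7 between the control groups was 2.15 ± 0.66 (SE), and it was 1.86 without IL10_control replicate 1, 1.39 without WT_control replicate 2, 0.98 with samples centred and 0.33 under quantile normalization. Between the STAT groups C7 was at least 1.27-fold higher in IL10_STAT.

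C9, the subunit that polymerises into the pore, had its higher values in C57-labelled mice. Its signal was 7.65, 12.2 and 5.67 in IL10_STAT and 17.1, 3.59 and 11.9 in IL10_control. It was 22.8, 49.4 and 13.4 in WT_STAT and 43, 48.8 and 24 in WT_control. Every IL10-labelled mouse was under 20, and 5 of 6 C57-labelled mice were above 20. C9 was at least 1.85-fold lower in IL10_control than in WT_control and at least 1.24-fold lower in IL10_STAT than in WT_STAT. C7 and C9 are both on chromosome 15, and their genes share no motif match in the windows printed above.

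Among the soluble regulators, C4bp, which binds C4b and speeds the decay of the classical C3 convertase, was lower in IL10-labelled mice and kept that call in both genotype contrasts in every alternative run. Its signal was 25.9, 33.2 and 23 in IL10_STAT and 33.6, 26.8 and 26.4 in IL10_control. It was 82.1, 68.8 and 85.6 in WT_STAT and 73.7, 81.5 and 40 in WT_control. The highest IL10-labelled mouse, at 33.6, was below the lowest C57-labelled mouse, at 40. C4bp rested on 18.25 to 36.9 counts above background in IL10-labelled mice. From these counts alone the counting error was 16.5% to 23.4%, a lower bound. C4bp was 2.13-fold lower in IL10_control than in WT_control (-1.09 ± 0.27, adjusted p = 0.00513 in limma's test) and 2.83-fold lower in IL10_STAT than in WT_STAT (-1.50 ± 0.27, adjusted p = 0.00113).

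Serping1 encodes the C1 inhibitor, which inactivates C1r and C1s. Its signal was 727, 803 and 792 in IL10_STAT and 1007, 1112 and 897 in IL10_control. It was 828, 906 and 631 in WT_STAT and 650.1, 534 and 440.3 in WT_control. Under the control inoculum the groups did not overlap and Serping1 was 1.87-fold higher in IL10_control (0.90 ± 0.21, adjusted p = 0.00330 in limma's test), but the difference was 0.13 under quantile normalization (0.510) and -0.27 with samples centred. Under STAT the groups overlapped, with a log2 difference of -0.01 ± 0.21 (adjusted p = 0.968). That value became -0.53 with samples centred (adjusted p = 0.0199) and -0.47 under quantile normalization (0.0244), so its call also hung on the scaling.

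C1qbp, a mostly mitochondrial protein that can bind the heads of C1q, averaged 1612 ± 234 in IL10_STAT, 1679.8 ± 75.4 in IL10_control, 1549 ± 45.2 in WT_STAT and 1540.0 ± 107 in WT_control (SD, n = 3 each). Its log2 difference was 0.13 ± 0.17 between the control groups (adjusted p = 0.568 in limma's test) and 0.05 ± 0.17 between the STAT groups (0.820). With samples centred these turned to -1.04, a call as lower (adjusted p = 0.00347), and -0.47 (0.121), and under quantile normalization to -0.44, also a call as lower (0.0481), and -0.28 (0.185). Cd55, the membrane decay-accelerating factor, averaged 552 ± 58.7 in IL10_STAT, 607 ± 169 in IL10_control, 417 ± 68.9 in WT_STAT and 391 ± 107 in WT_control. It differed by 0.63 ± 0.28 between the control groups (adjusted p = 0.0782) and by 0.41 ± 0.28 between the STAT groups (0.261), and turned to -0.54, a call as lower (adjusted p = 0.0211), and -0.11 (0.621) with samples centred.

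Cfd and Cr2 were the members with the widest spread between mice of 1 group. Factor D, encoded by Cfd, is the protease that cleaves factor B and is known as adipsin because fat cells make much of it. Its signal was 127, 95.1 and 229 in IL10_STAT and 349, 2068 and 1063 in IL10_control. It was 798, 2474 and 2295 in WT_STAT and 181, 1989 and 1238 in WT_control. No IL10_STAT mouse was above 229, while each other group held a mouse well below its higher ones. The lowest mouse was at 349 in IL10_control, 798 in WT_STAT and 181 in WT_control, the last within the IL10_STAT range. Cfd was 11.7-fold lower in IL10_STAT than in WT_STAT (-3.55 ± 0.89, adjusted p = 0.00684 in limma's test), with values of -4.07 to -3.26 over the alternatives, all of which kept the call. Between IL10_control and WT_control it differed by 0.26 ± 0.89 (adjusted p = 0.840), and that direction turned with samples centred (-0.91), under quantile normalization (-0.51) and without IL10_control replicate 2 (-0.33) or WT_control replicate 1 (-0.78).

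The adipocyte list had 2 of 8 genes in the table, Pparg and Cd36, and the defining adipocyte genes on it were not measured here. Their summed signal was 643 to 735 in IL10_STAT, 801 to 1166 in IL10_control, 907 to 1521 in WT_STAT and 839.8 to 1533 in WT_control. Cd36, a fatty acid transporter also found on macrophages, endothelium and enterocytes, was at 138 to 178 in IL10_STAT, 289 to 548 in IL10_control, 461 to 865 in WT_STAT and 419.9 to 862 in WT_control. Pparg, the fat cell transcription factor that enterocytes also express, was at 504 to 557 in IL10_STAT, 383 to 686 in IL10_control, 447 to 656 in WT_STAT and 419.9 to 682 in WT_control. Every IL10_STAT mouse was below every other mouse in Cd36, while the Pparg values of IL10_STAT lay within the range of each other group. The part of attached fat in the Cfd signal was not tested.

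Cr2, the receptor of B cells and follicular dendritic cells for C3 fragments, had a signal of 19.6, 28.2 and 21.3 in IL10_STAT and 44.2, 71.1 and 1.81 in IL10_control. It had 29.1, 26.1 and 0.708 in WT_STAT and 0, 11.9 and 0 in WT_control. The mice with the lowest Cr2 in IL10_control and WT_STAT were replicate 3 of each. No WT_control mouse reached 20, so Cr2 passed the filter through the other groups. Cr2 was not called in either genotype contrast, and its differences are given without p-values for that reason. The log2 difference was 3.15 ± 1.44 (SE) between the control groups and 1.09 ± 1.44 between the STAT groups. Without IL10_control replicate 3 the control contrast gave 4.60, and without WT_STAT replicate 3 the STAT contrast turned to -0.26. Ms4a1, the B cell surface protein CD20, was at 319 to 351 in IL10_STAT, at 480.3, 855 and 62.5 in IL10_control, at 349, 298 and 61.6 in WT_STAT and at 41.2 to 118 in WT_control, and within IL10_control and WT_STAT it was also lowest in replicate 3. It was taken from the B cell list after its values were seen. The 7 B cell markers used summed to 2601 to 2707 in IL10_STAT, 1816 to 3518 in IL10_control, 1592.5 to 2422 in WT_STAT and 1212 to 2032 in WT_control. Cd79a, a B cell receptor chain, was under 20 in all mice. The part of B cell follicles in each tissue piece in the Cr2 signal was not tested.

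**Figure D4:**
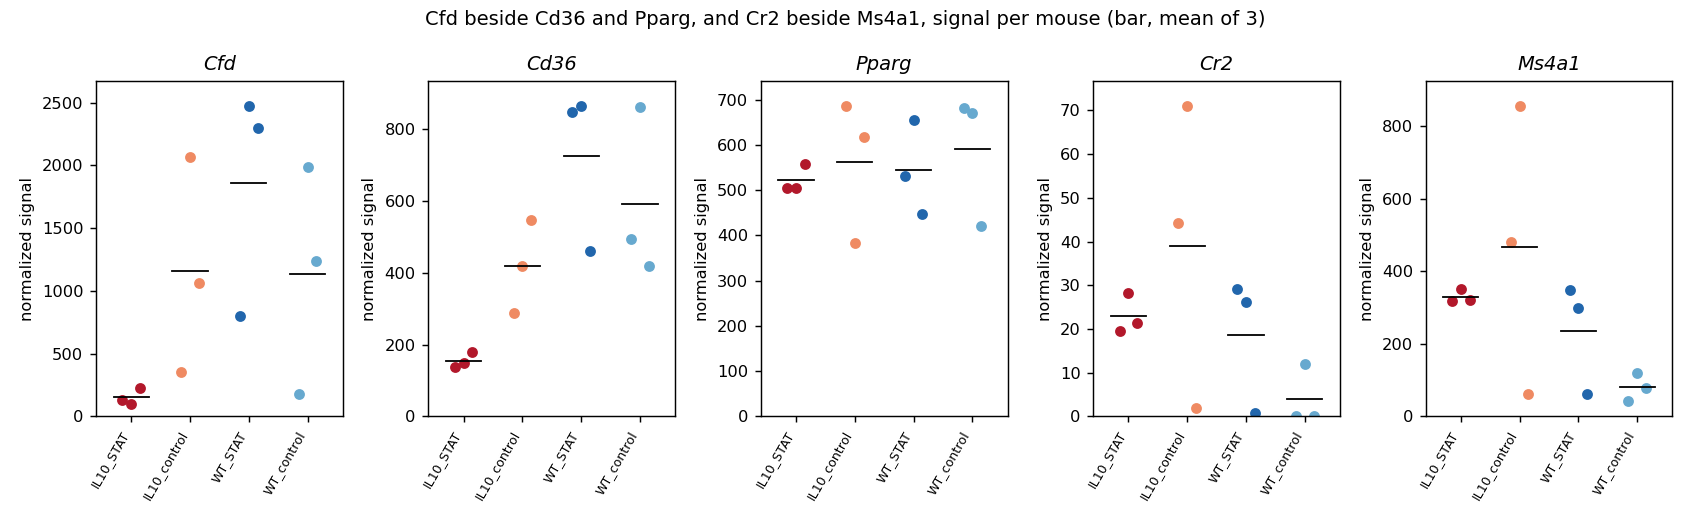
Normalized signal (linear axis from 0, no unit) of Cfd beside Cd36 and Pparg, and of Cr2 beside Ms4a1, with 1 dot per mouse and a bar at the mean of 3 mice. Cfd is 95.1 to 229 and Cd36 138 to 178 in IL10_STAT, and Cr2 and Ms4a1 are both lowest in the third mouse of IL10_control and of WT_STAT.

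The inoculum of the mothers gave no member that passed in either genotype label. In the IL10-labelled mice, STAT against control, 0 of 18 members passed in limma's test and 0.0% of the panel did, with 2 members and 31 panel genes at an unadjusted p under 0.05. Of the 18 members, 16 lay below 0 and 2 above, with a median of -0.28 beside -0.22 for all genes. With samples centred the members divided 9 and 9 and the panel median was 0.06. The groups did not overlap for 5 members (C1ra, C6, C7, Cfd and Serping1), all lower in IL10_STAT, where they did not for 23.2% of all genes, 21.2% lower and 1.97% higher.

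In the values listed above, each IL10_STAT mouse had less Cfd than each IL10_control mouse. Cfd was 6.48-fold lower in IL10_STAT than in IL10_control (-2.70 ± 0.89, adjusted p = 0.543 in limma's test), which did not pass. C3 was at 1280.3 to 1716 in IL10_STAT and 1661 to 3323 in IL10_control, and differed by -0.70 ± 0.30 (adjusted p = 0.718). Serping1 differed by -0.37 ± 0.21 (0.823) and C1qa by -0.30 ± 0.21 (0.838). C2 averaged 447 ± 45.6 in IL10_STAT and 449 ± 78.9 in IL10_control (SD, n = 3 each).

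In the C57-labelled mice, WT_STAT against WT_control, 0 of 18 members passed in limma's test, where 0.875% of the panel did. At an unadjusted p under 0.05 there were 5 members and 79 panel genes. Of the 18 members, 15 lay above 0 and 3 below, with a median of 0.55 beside 0.24 for all genes. With samples centred 10 lay above and 8 below, and the panel median was -0.13. C1qa, C1qb, C3 and Cfp were higher in every WT_STAT mouse than in any WT_control mouse, 4 of 18 members where 15.8% of all genes did so. No member was lower without overlap, where 0.219% of all genes were, 16% in all.

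C1qb averaged 1063 ± 224 in WT_STAT and 609 ± 49.8 in WT_control (SD, n = 3 each), 1.72-fold higher (0.78 ± 0.20, adjusted p = 0.0896 in limma's test). C1qa was 1.62-fold higher (0.70 ± 0.21, adjusted p = 0.119) and C3 1.67-fold higher (0.74 ± 0.30, 0.228). Serping1 differed by 0.54 ± 0.21 (adjusted p = 0.200) and C1ra by 0.76 ± 0.30 (0.209). None of these passed with all mice. Without WT_STAT replicate 3, which was lowest of its group in C1qb, C1ra, C1s and C4a, these 4 members passed: C1qb (0.92, adjusted p = 0.0277), C1ra (1.09, 0.0277), C1s (0.98, 0.0485) and C4a (1.11, 0.0438). In that fit 9.63% of the panel passed, and the panel median rose from 0.24 to 0.44. WT_STAT replicate 3 also had the fewest counts above background of its group, 191012, and the most genes at 0, 75. With array weights, by which limma gives samples of wide spread less weight, C1qa, C1qb, C1ra, C3 and Serping1 passed, as did 18.2% of the panel.

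**Figure D5:**
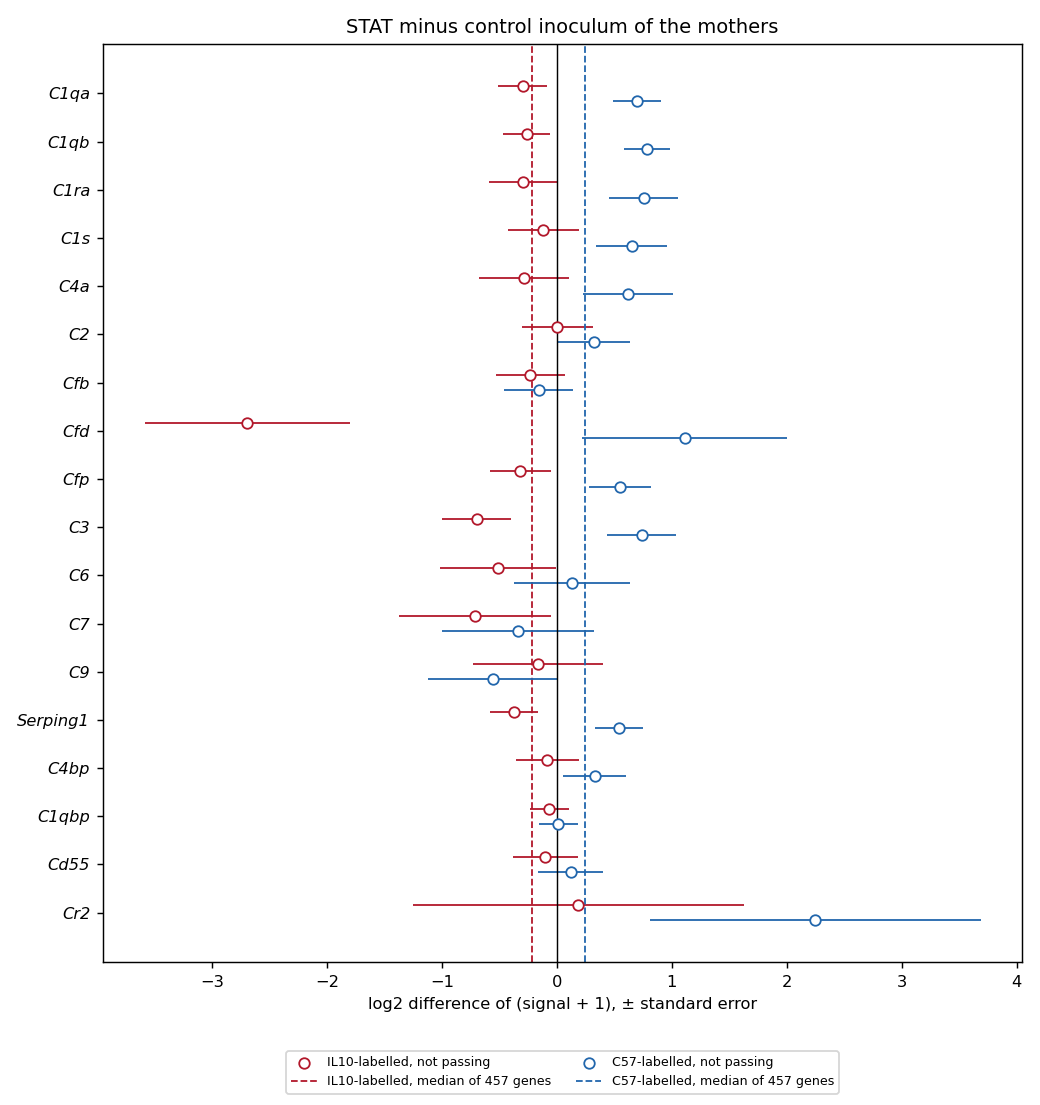
Log2 difference of (signal + 1), STAT minus control inoculum of the mothers, for each tested member in IL10-labelled and in C57-labelled mice, with bars of 1 standard error and dashed lines at the median of the 457 genes. All points are open because no member passed. Most IL10-labelled points lie at or below 0 and most C57-labelled points above it, with medians of -0.28 and 0.55, which shrink when samples are centred.

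The difference between the STAT effects of the IL10-labelled and the C57-labelled mice was tested as an interaction, and 0 of 18 members and 0.0% of the panel passed in limma's test. At an unadjusted p under 0.05 there were 7 members and 97 panel genes. The estimate was below 0 for 17 members and above 0 for 1, with a median of -0.82 beside -0.48 for all genes. With samples centred 10 lay below and 8 above, and the panel median was 0.17. The members of smallest p were C1qb (-1.05 ± 0.28), C3 (-1.43 ± 0.42) and C1qa (-0.99 ± 0.30), each with an adjusted p of 0.104. Serping1 followed at -0.91 ± 0.30 (0.130) and Cfd at -3.81 ± 1.26 (0.140). Without WT_STAT replicate 3, 6 members passed, which were C1qb (-1.18), C3 (-1.63), C1qa (-1.10), Serping1 (-1.07), C1ra (-1.38) and C4a (-1.40), and 12.7% of the panel passed. With array weights these 6 and C1s passed, as did 28.9% of the panel.

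Other genes of the pathway were taken from a list of 17 outside the members, of which 8 were in the table and 5 were tested. Between IL10_control and WT_control 4 were higher and 0 lower, and between IL10_STAT and WT_STAT 2 were higher and 1 lower, beside the panel shares of 53.6% higher and 3.94% lower and of 40% higher and 11.6% lower. Itgb2, the shared beta chain of complement receptors 3 and 4, was at 317 to 520.4 in IL10_STAT, 373 to 696 in IL10_control, 109.7 to 198 in WT_STAT and 79.3 to 95.2 in WT_control. Its log2 signal was higher in IL10-labelled mice by 2.57 ± 0.30 under the control inoculum (adjusted p = 3.49e-05 in limma's test) and by 1.50 ± 0.30 under STAT (0.00189). Itgax, the alpha chain of complement receptor 4, was higher by 2.41 ± 0.35 (0.000135) and 1.20 ± 0.35 (0.0141). Itgam, the alpha chain of receptor 3, differed by 2.02 ± 0.50 under the control inoculum (adjusted p = 0.00449, and 0.0816 under quantile normalization) and by 1.07 ± 0.50 under STAT (0.0992). Clu, clusterin, an inhibitor of the terminal pore, differed by 1.39 ± 0.50 under the control inoculum (0.0330), which became 0.22 with samples centred (0.570). Cd81, a tetraspanin of B cells and many other cells, fell by 0.75 on the log2 scale in IL10_STAT against WT_STAT (SE 0.19, adjusted p = 0.00740). Under the control inoculum Cd81 differed by -0.22 ± 0.19 (0.375), which became a call as lower with samples centred (-1.39, 0.000151) and under quantile normalization (-0.74, 0.00136). Hc, which encodes C5, was at most 10.2 in any mouse.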

How the data were processed

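NanoString signal was measured in 12 ileum RNA samples, 4 groups of 3 by genotype label and inoculum, grouped by the labels of each sample. Replicate numbers only name mice, in record order. The deposited table held 547 genes as a linear signal that the authors had normalized. What it was normalized to is not given in the sources used here. Per sample, 100% of positive values were whole steps within 0.01 counts above the lowest one, as would follow from counts minus a background times a factor, and the counts above background were taken from that step. All 26 members were named, with values in every mouse for those of smallest p and those the results turn on. The members, gene lists and marker lists were chosen with earlier results of these data known. Some genes of the marker and pathway lists are not reported here.

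The 457 genes that stood at 20 or more in 3 or more samples entered limma (version 3.58.1, R 4.3.3) on the scale log2(signal + 1), as 1 fit of 4 group means over 12 samples, with Benjamini-Hochberg adjustment over the 457 genes, checked on simulated data. Differences are given with standard errors of the fit. The pseudocount of 1 understates changes of low genes. For a gene under 20 in every sample of 1 group the fold is a bound with that group set to 20. An exact permutation of 3 against 3 cannot give p under 0.1 and was not used. Alternatives were other scalings, a pseudocount of 10, other filters, values under 20 set to 20, array weights, only the groups compared, and leaving out each sample. Promoter windows and gene neighbours are from RefSeq GRCm38.p6.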

Additional observations from a re-analysis of the deposited data

How the results depend on the processing

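Counts of members passing stayed within 1.5 times of the full fit for both genotype contrasts, at 12 to 15 for IL10_control against WT_control and 9 to 14 for IL10_STAT against WT_STAT, and at 0 in every alternative for IL10_STAT against IL10_control. For WT_STAT against WT_control array weights gave 5, and leaving out single samples gave 0 to 4. For the interaction array weights gave 7, and leaving out single samples gave 0 to 6, in both cases the highest without WT_STAT replicate 3. The cause was not tested. Over single members, 649 of 736 recomputed values kept direction and side of the threshold, 37 lost the call, 24 gained it and 26 changed sign.

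In IL10_control against WT_control the signs turned with samples centred and under quantile normalization for C1qbp (-1.04 and -0.44), Cd55 (-0.54 and -0.20), Cfb (-0.68 and -0.26) and Cfd (-0.91 and -0.51), and with samples centred for Serping1 (-0.27). Leaving out single samples gave Cfd -0.78 to 0.95. In IL10_STAT against WT_STAT they turned for C1qbp (-0.47 and -0.28, -0.030 with array weights), Cd55 (-0.11 and -0.044) and Cfb (-0.11 and -0.058), for Cr2 under quantile normalization (-0.48) and with values under 20 set to 20 (-0.11), and for Serping1 scaled on broadly expressed genes (0.14). Leaving out single samples gave C1qbp -0.064 to 0.14, Cr2 -0.26 to 1.81 and Serping1 -0.16 to 0.10. Centring and quantile scaling remove the shift of the panel median between genotype labels by construction.

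Scaling on a housekeeping list was not run because only B2m of its 16 genes was in the table. Scaling on 17 broadly expressed genes was added after seeing the data, and left panel medians of 0.97 for the control and 0.66 for the STAT genotype contrast. No paired analysis was possible because the labels give no replicate numbers. Depth limits C2 in C57-labelled mice, C4bp in IL10-labelled mice and the terminal components.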
